A study of Sus scrofa with 9 samples.

Results

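Fatty acid oxidation is the stepwise breakdown of acyl chains to acetyl-CoA, and liver is one of its main sites. The genes described here encode its mitochondrial and peroxisomal machinery. They are 37 genes chosen for their known place in the pathway, with earlier results of these data known. They were matched by symbol to the 29837 gene symbols of the counts table. All 37 symbols were found, and 36 had enough counts to be tested. The exception was ABCD2, a peroxisomal importer of fatty acyl-CoA, with 1 count in WT liver 1 and 0 in each of the other 8 libraries.

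Livers of 4 MIDY pigs were compared with livers of 5 wild type (WT) pigs. In the MIDY model, named for diabetes of youth caused by a mutant INS gene, the pigs are C94Y transgenic, per the labels. All 9 animals were female, 2 years old, kept under controlled housing and fed daily. Diabetic animals were given short-acting and long-acting insulin by day, per the labels, so that in this comparison genotype and insulin treatment cannot be told apart. The sources used here do not give the promoter of the transgene, the founder line or the time since the last meal or insulin dose. Ribosomal RNA was depleted before each library was made from 1 liver, and the libraries were taken as separate animals from their labels.

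Long-chain fatty acids are first joined to coenzyme A by the ACSL enzymes, then carried into mitochondria as carnitine esters by CPT1A, SLC25A20 and CPT2. Inside, repeated rounds of dehydrogenation, hydration, another dehydrogenation and thiolysis release acetyl-CoA, and electrons leave through the ETF proteins. Peroxisomes shorten very long and branched chains with their own oxidases, bifunctional enzymes and thiolase. In liver the pathway supplies ketone bodies and energy during fasting, insulin restrains it by way of malonyl-CoA, an inhibitor of CPT1A, and many of its genes are targets of the nuclear receptor PPARA in rodents and humans.

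Libraries held 14115415 to 19533463 counts. Levels below are CPM, counts scaled to library size with TMM factors, and they compare libraries for 1 gene, not genes with each other, since transcript lengths were not used. The hepatocyte markers were abundant in each library (12 of 12 found, summed level 157401 to 188510.0 CPM in MIDY livers and 134431 to 189278 CPM in WT livers). Most of that sum came from ALB, which averaged 117614 CPM in MIDY livers and 106557 CPM in WT livers. Fitted log2 fold changes of the 12 markers ran from -0.45 to 0.57, 6 above 0 and 6 below. Marker sums of some other cell types were lower in MIDY livers. Summed lymphocyte markers (8 of 8 found) spanned 21.9 to 30.4 CPM in MIDY livers and 31.9 to 70.0 CPM in WT livers, and summed stellate cell and fibroblast markers (8 of 8 found) 258 to 391 CPM in MIDY livers and 361 to 618 CPM in WT livers. Summed adipocyte markers (5 of 5 found) spanned 28.2 to 31.8 CPM in MIDY livers and 34.0 to 51.0 CPM in WT livers, most of it from CFD (22.3 ± 3.63 CPM in MIDY livers and 35.3 ± 6.56 CPM in WT livers, SD, n = 4 and 5). PLIN1 lay the other way without overlap (2.25 ± 0.556 CPM in MIDY livers and 1.21 ± 0.114 CPM in WT livers), CIDEC had a log2 fold change of -0.0053, and ADIPOQ had 0 counts in all livers but WT liver 2, with 1 count. None of 15 library measures passed an exact two-sided permutation test after adjustment (lowest adjusted p = 0.238, unadjusted p = 0.0159). The measures were these 4 and 6 more marker sums beside 5 measures of depth and composition. Of those 6, the red blood cell sum (3 of 4 markers found) spanned 161 to 535 CPM in MIDY livers and 68.3 to 1487 CPM in WT livers. Its highest values were 1487 CPM in WT liver 1 and 1052 CPM in WT liver 3. In that permutation test 0.00794 is the smallest p that 4 against 5 livers can give. A single measure at that p would not pass after adjustment over 15 measures, so the test cannot show that the groups were alike in composition. The lymphocyte and adipocyte sums of every MIDY liver lay below those of every WT liver, while the hepatocyte and the stellate cell and fibroblast sums overlapped. In bulk liver, fewer cells of a type and less RNA per cell cannot be told apart, and the part of these marker levels in the results below was not tested. The markers COL1A2, a fibrillar collagen, and CD2, of T cells, fell in MIDY livers (log2 fold change -0.81 and -0.90; edgeR adjusted p = 0.0434 and 0.0377). Of the muscle markers, MYH7 and TNNT3 were at 0 in every liver, and ACTA1 and CKM together reached at most 0.350 CPM. Of the pancreas markers, GCG was at 0 in every liver, INS had at most 2 counts, and CPA1 reached 3.88 CPM in MIDY and 2.16 CPM in WT livers.

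Most fatty acid oxidation genes averaged somewhat higher in MIDY than in WT livers, and none of them passed the test singly. The fitted log2 fold change of MIDY over WT was above 0 for 31 of the 36 tested genes, or 86.1%, beside 49.3% of all 14100 genes tested. Its median was 0.24 for the 36 genes and -0.0046 for all genes tested. The peroxisomal genes (median 0.53, 9 of 9 above 0) and the carnitine shuttle genes (median 0.62, 4 of 4 above 0) lay highest, and the acyl-CoA synthetases that activate fatty acids lay lowest (median -0.20, 1 of 4 above 0).

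By edgeR's quasi-likelihood test 0 of the 36 genes were called at a Benjamini-Hochberg adjusted p below 0.05, higher or lower, where 1.17% of all genes tested were called (0.816% higher and 0.355% lower). The lowest adjusted p was 0.0632, for ACAD11. At an unadjusted p below 0.05, 15 of the 36 genes were higher in MIDY livers and 0 lower, beside 8.15% higher and 8% lower of all genes tested. Counted in either direction, 8 (without MIDY liver 1) to 17 (without MIDY liver 4) passed that threshold with 1 library left out. Without WT livers 1 and 2 the count was 7. The shares of all genes in those fits were not counted. DESeq2 on the same counts called 5 of the 36 higher (ABCD3, ACAA1, ACAD11, ACOX2 and CROT), where it called 2.52% of all genes higher. With 1 surrogate variable as a covariate 3 were called higher (ACAD11, CRAT and HADHA; background 1.04%), and limma voom with sample weights called 0 (background 1.09%). In 3 genes every MIDY liver lay above every WT liver, and in 0 genes below. Of all genes tested, 3.72% were separated upward in MIDY livers and 2.63% downward. Scaled by total counts alone, 8 of the 36 were separated upward, where 3.95% of all genes were. With TMM factors and without MIDY liver 4 the count was 14, where 6.01% of all genes were separated upward. Without MIDY liver 1, 2 or 3 it was 3, 3 and 4, where 5.97%, 4.77% and 4.67% of all genes were. Leaving out 1 WT liver gave 3 to 6, where 4.55% to 5.37% of all genes were.

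**Figure D1:**
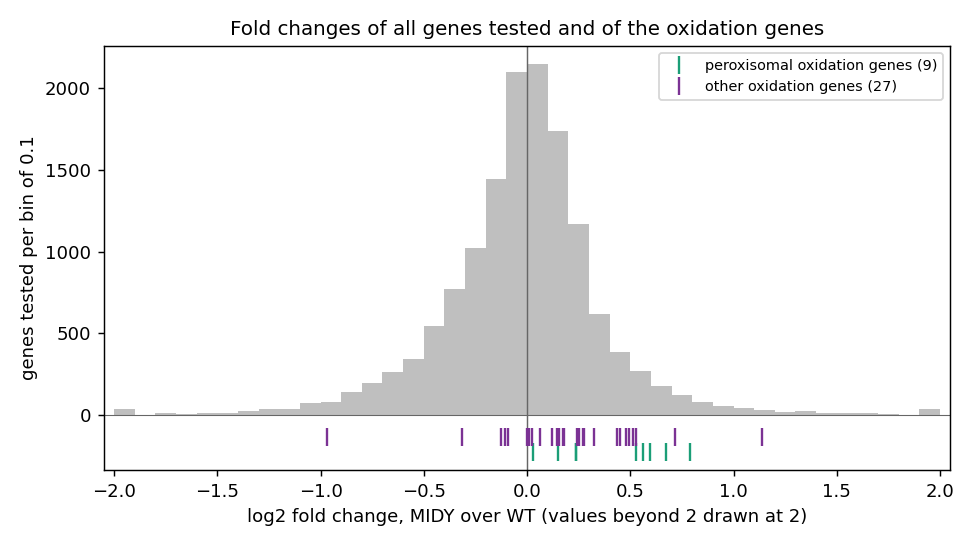
Histogram of the log2 fold change, MIDY over WT, of the 14100 genes tested (grey, genes per bin of 0.1), with a tick below it for each fatty acid oxidation gene, 9 peroxisomal (green) and 27 others (purple). The ticks run from -0.97 to 1.14, and 31 of 36 stand right of 0, with the 9 peroxisomal ticks all right of 0.

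**Figure D2:**
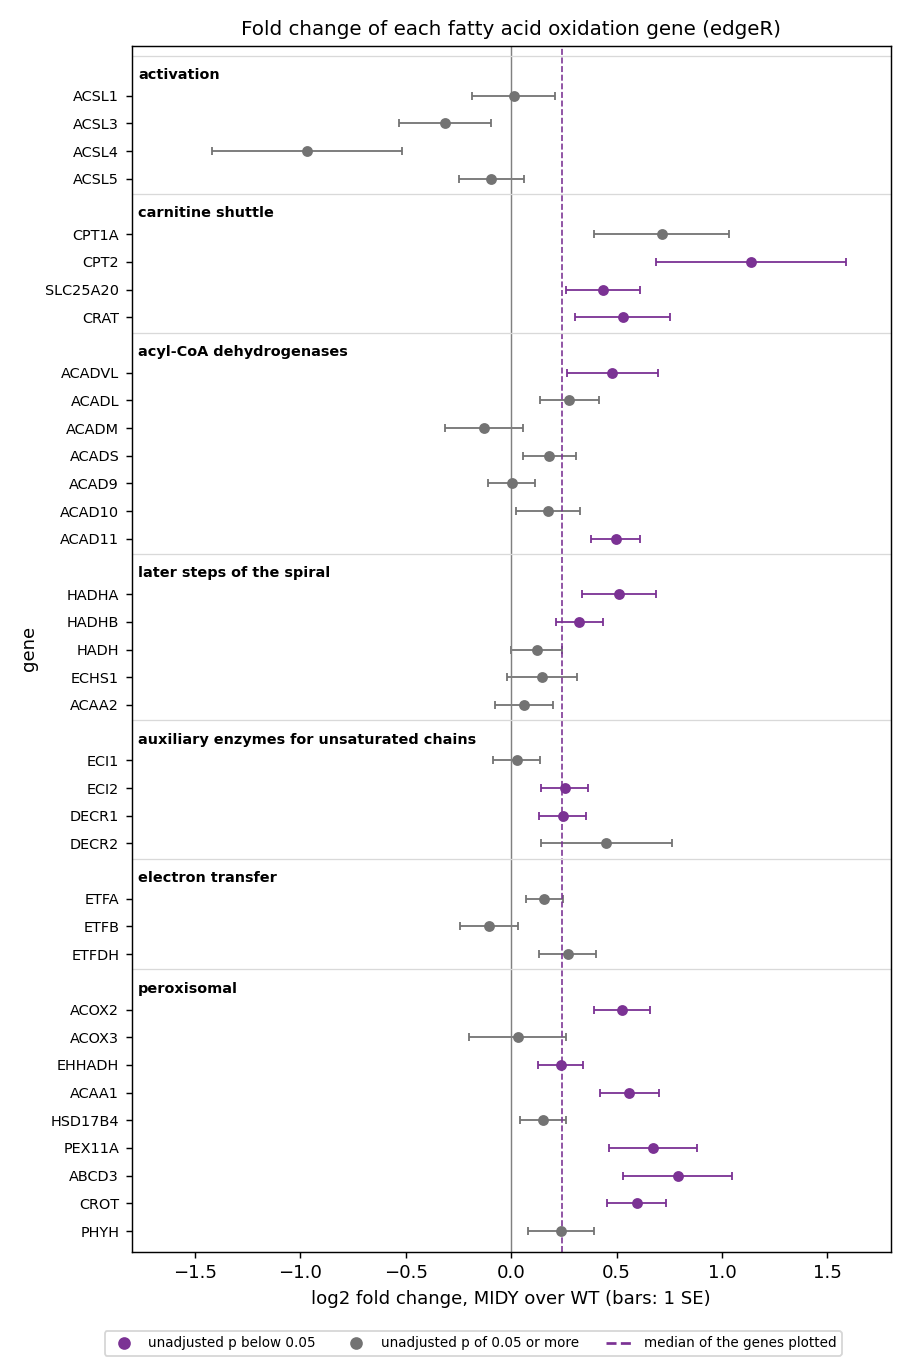
Fitted log2 fold change of MIDY over WT for the 36 tested genes, grouped by role. Points are edgeR estimates and bars 1 SE; purple points have an unadjusted p below 0.05 and the dashed line is the median of the 36. Purple points number 15, all right of 0, and 6 of the 9 peroxisomal genes are among them.

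The acyl-CoA synthetases, which trap fatty acids as CoA esters for oxidation or for lipid synthesis, had values on both sides of 0. ACSL1, the long-chain synthetase best known from liver and fat tissue, was measured at 1238, 555, 822 and 613 CPM in MIDY livers 1 to 4, against 782, 777, 839, 799.8 and 803 CPM in WT livers 1 to 5. The WT livers were nearly level (coefficient of variation 3.05%), while the MIDY livers ranged from well below to well above them. The means were almost equal, and the fitted log2 fold change was 0.012 ± 0.20 (SE; edgeR adjusted p = 0.986). Without MIDY liver 1 it was -0.27.

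ACSL4, a synthetase that prefers arachidonic acid, stood at 67.0, 96.8, 219.6 and 76.9 CPM in MIDY livers, against 441, 177, 164, 176 and 169.7 CPM in WT livers. MIDY livers 1, 2 and 4 lay below all WT livers, MIDY liver 3 lay within the WT values, and WT liver 1 was far above the other WT livers. The log2 fold change, -0.97 ± 0.45 (SE; edgeR adjusted p = 0.336), was the lowest of the 36. It was -0.58 without WT liver 1 and -1.49 without MIDY liver 3. ACSL3, linked to lipid droplets, and ACSL5, found on mitochondria and endoplasmic reticulum, had log2 fold changes of -0.31 ± 0.22 and -0.094 ± 0.15 (SE; edgeR adjusted p = 0.518 and 0.820).

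The carnitine shuttle genes were the group with the highest median. CPT1A, the malonyl-CoA-sensitive step that commits long chains to mitochondria, was measured at 159, 90.3, 72.4 and 76.8 CPM in MIDY livers, against 33.0, 62.2, 47.8, 94.8 and 65.4 CPM in WT livers. MIDY liver 1 was above every WT liver, the other 3 MIDY livers lay inside the WT values, and the WT livers themselves differed by a factor of 2.87 between the lowest and the highest. The log2 fold change was 0.72 ± 0.32 (SE; edgeR adjusted p = 0.311), and 0.40 without MIDY liver 1.

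CPT2, which turns acylcarnitines back into acyl-CoA at the inner membrane, had 130.4, 90.2, 49.1 and 76.8 CPM in MIDY livers, against 37.3, 56.2, 20.9, 65.9 and 16.2 CPM in WT livers. MIDY livers 1, 2 and 4 lay above all WT livers and MIDY liver 3 did not. Among WT livers the levels spanned a factor of 4.08, which gave CPT2 the largest coefficient of variation of the 36 genes in WT (55.1%). Its log2 fold change, 1.14 ± 0.45 (SE; edgeR adjusted p = 0.266), was the highest of the 36, and its standard error was among the largest. Leaving out single libraries gave 0.87 to 1.40.

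SLC25A20, the carrier that exchanges acylcarnitine for carnitine, averaged 13.7 ± 3.68 CPM in MIDY livers and 10.1 ± 1.48 CPM in WT livers (SD, n = 4 and 5), and CRAT, which moves acetyl and other short acyl groups onto carnitine, averaged 81.6 ± 30.9 CPM in MIDY livers and 56.6 ± 9.95 CPM in WT livers (SD, n = 4 and 5). Both had MIDY liver 1 as the highest library and WT liver 5 as the lowest. Their log2 fold changes were 0.44 ± 0.18 and 0.53 ± 0.23 (SE; edgeR adjusted p = 0.251 and 0.282). Without MIDY liver 1 these became 0.24 and 0.26. Summed over the 4 shuttle genes, levels were 432, 278, 199.6 and 217 CPM in MIDY livers, against 142, 185, 148, 227 and 132 CPM in WT livers. MIDY livers 1 and 2 exceeded every WT liver, and MIDY livers 3 and 4 lay below WT liver 4.

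**Figure D3:**
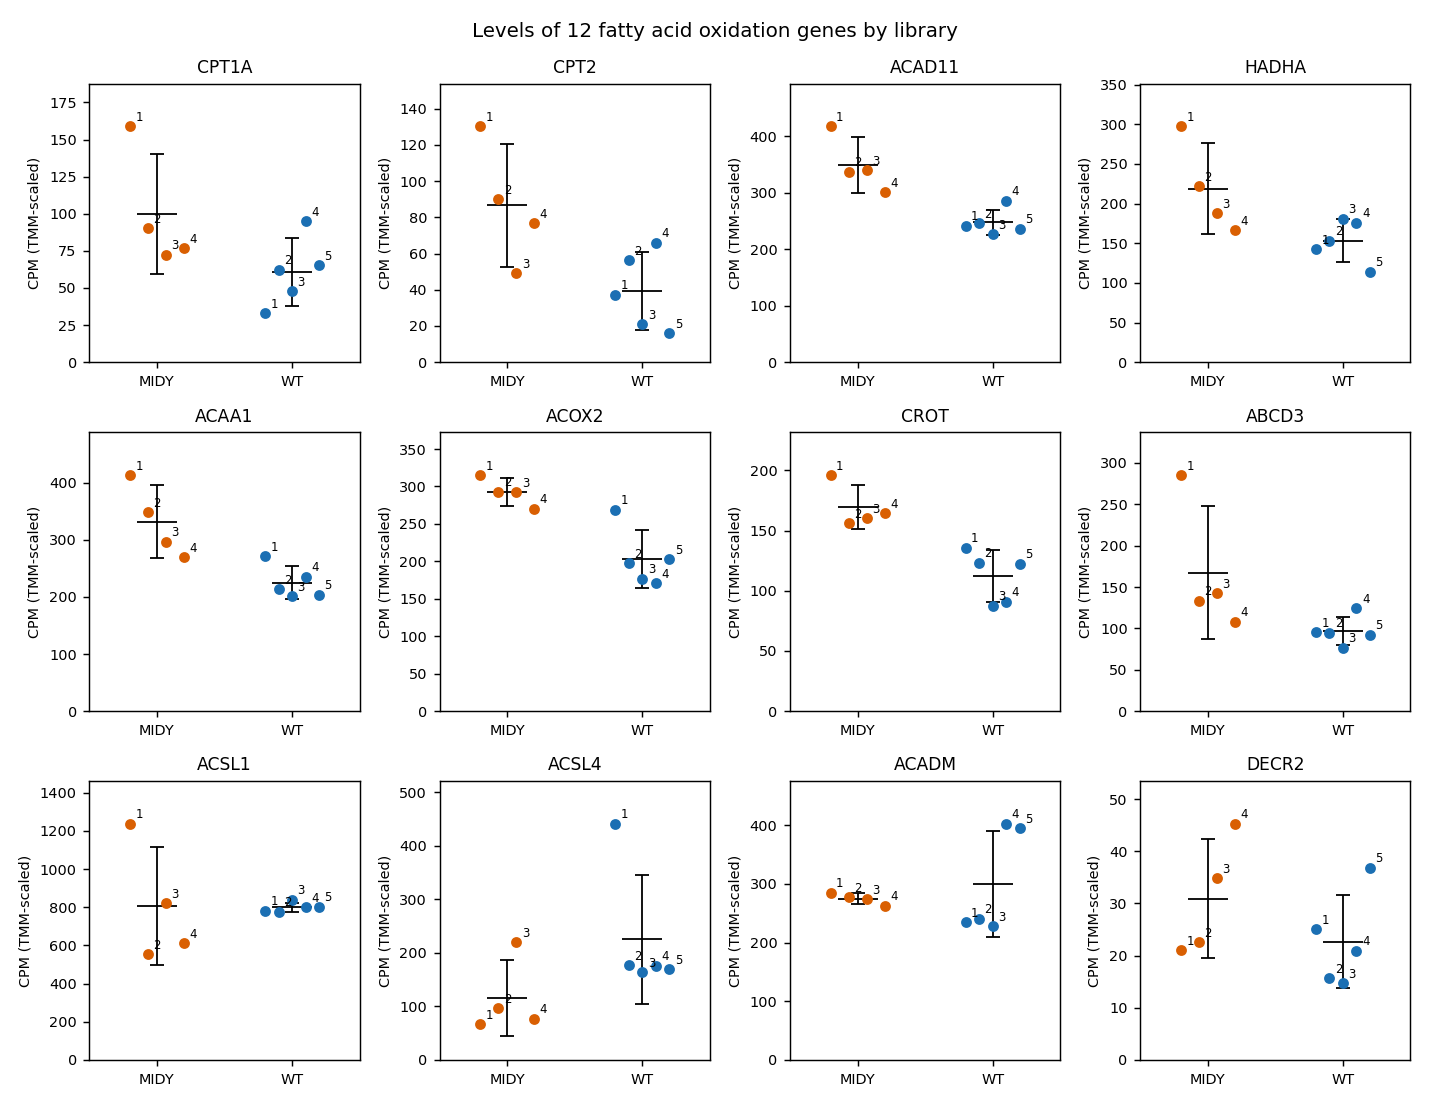
TMM-scaled CPM of 12 fatty acid oxidation genes in each liver, MIDY left of WT; numbers are replicates, and black marks are the mean ± SD (n = 4 MIDY and 5 WT). ACAD11, ACOX2 and CROT have no MIDY liver at or below a WT liver, CPT1A and ABCD3 are highest in MIDY liver 1, and the ACADM levels of the WT livers lie in 2 separate clusters.

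The acyl-CoA dehydrogenases perform the first step of each round, divided by chain length. ACAD11, a family member active on long chains and on 4-hydroxy acids, was measured at 418, 337, 339.7 and 300.2 CPM in MIDY livers, against 242, 246, 227, 285 and 236 CPM in WT livers. The lowest MIDY liver was above the highest WT liver. It averaged 349 ± 49.4 CPM in MIDY livers and 247 ± 22.5 CPM in WT livers (SD, n = 4 and 5), with a log2 fold change of 0.50 ± 0.12 (SE; edgeR adjusted p = 0.0632). Leaving out single libraries gave 1 call in 9 fits (without MIDY liver 4, edgeR adjusted p = 0.0442, beside 0.995% of genes called higher in that fit). The ACAD11 counts are uncertain, since its model is overlapped in the annotation.

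ACADVL, which opens the round for very long chains, stood at 71.5, 42.0, 34.5 and 33.4 CPM in MIDY livers, against 26.8, 29.6, 34.0, 40.1 and 31.8 CPM in WT livers. Only MIDY livers 1 and 2 passed the highest WT liver. The log2 fold change was 0.48 ± 0.22 (SE; edgeR adjusted p = 0.301), and 0.17 without MIDY liver 1. ACADM, the medium-chain enzyme, had a different pattern, at 285, 278, 274 and 263 CPM in MIDY livers, against 234, 241, 228, 403 and 395 CPM in WT livers. The MIDY livers were almost equal (coefficient of variation 3.35%), and the WT livers fell into 3 below all MIDY livers and 2, WT livers 4 and 5, well above them. Its log2 fold change was -0.13 ± 0.18 (SE; edgeR adjusted p = 0.789).

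ACADL and ACADS, the long-chain and short-chain enzymes, had log2 fold changes of 0.28 ± 0.14 and 0.18 ± 0.13 (SE; edgeR adjusted p = 0.362 and 0.513). Levels of ACAD9, also an assembly factor of respiratory complex I, were close in both groups, at 24.8 ± 2.83 CPM in MIDY livers and 24.8 ± 2.21 CPM in WT livers (SD, n = 4 and 5). ACAD10, a relative of ACAD11, had a log2 fold change of 0.17 ± 0.15 (SE; edgeR adjusted p = 0.619).

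Later steps of the mitochondrial round are shared by the trifunctional protein, whose subunits are HADHA and HADHB, and by soluble enzymes for shorter chains. HADHA, the hydratase and dehydrogenase subunit, was measured at 298, 222, 188 and 166 CPM in MIDY livers, against 142, 153, 181, 176 and 114 CPM in WT livers. MIDY livers 1, 2 and 3 lay above all WT livers, and MIDY liver 4 inside them. HADHB, the thiolase subunit, ran 198, 178, 161 and 144 CPM in MIDY livers, against 135, 127, 151, 139 and 128 CPM in WT livers. The ordering of the MIDY livers was the same as for HADHA, 1 highest and 4 lowest, and again 3 MIDY livers lay above all WT livers.

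The log2 fold changes were 0.51 ± 0.18 for HADHA and 0.32 ± 0.11 for HADHB (SE; edgeR adjusted p = 0.185 and 0.177), and 0.33 and 0.24 without MIDY liver 1. These genes are neighbours on chromosome 3 of Sscrofa11.1, HADHB at 112712894 to 112753121 and HADHA at 112753343 to 112797627, with 221 bases between the models; in humans they are known to be transcribed from a shared divergent promoter. The soluble enzymes were nearer to 0. HADH, the short-chain hydroxyacyl-CoA dehydrogenase, had a log2 fold change of 0.12 ± 0.12, ECHS1, the short-chain hydratase, one of 0.15 ± 0.16, and ACAA2, the mitochondrial thiolase, one of 0.062 ± 0.14 (SE; edgeR adjusted p = 0.669, 0.715 and 0.875).

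Unsaturated chains need extra isomerases and reductases. DECR1, the mitochondrial 2,4-dienoyl-CoA reductase, stood at 343, 408, 349 and 304 CPM in MIDY livers, against 327, 301, 271, 307 and 277 CPM in WT livers, with 3 of the 4 MIDY livers above all WT livers. DECR2, its peroxisomal counterpart, was spread widely in both groups, at 21.0, 22.6, 34.9 and 45.3 CPM in MIDY livers, against 25.1, 15.7, 14.7, 20.9 and 36.8 CPM in WT livers. It was the only 1 of the 36 genes with its highest level in MIDY liver 4, the library that was lowest of the MIDY livers in 25 of the others. Log2 fold changes were 0.24 ± 0.11 for DECR1 and 0.45 ± 0.31 for DECR2 (SE; edgeR adjusted p = 0.300 and 0.518). The enoyl-CoA isomerases ECI1 and ECI2 had 0.026 ± 0.11 and 0.25 ± 0.11 (log2 fold change ± SE; edgeR adjusted p = 0.939 and 0.287).

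Electrons from the dehydrogenases pass to the ETF heterodimer and then to ETFDH in the inner membrane. ETFA, the alpha subunit, was among the steadiest of these genes, at 232, 239.9, 236 and 222 CPM in MIDY livers, against 223, 198, 209, 208 and 206 CPM in WT livers. Coefficients of variation were 3.29% in MIDY and 4.30% in WT livers, 3 MIDY livers lay above all WT livers, and MIDY liver 4 was just below WT liver 1. The log2 fold change was 0.16 ± 0.09 (SE; edgeR adjusted p = 0.405). ETFB, the beta subunit, had -0.11 ± 0.14 and ETFDH 0.27 ± 0.14 (log2 fold change ± SE; edgeR adjusted p = 0.754 and 0.354).

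Fitted log2 fold changes of all 9 tested peroxisomal genes lay above 0 with all libraries, and of 8 without MIDY liver 1, MIDY liver 2 or WT liver 5, ACOX3 being the exception. Summed over this group, levels were 3109, 2783, 2689 and 2310.2 CPM in MIDY livers, against 2303, 2138, 2045, 2176 and 2192 CPM in WT livers. All MIDY sums were above all WT sums, though MIDY liver 4 and WT liver 1 nearly met. CROT, which makes medium-chain carnitine esters for export from peroxisomes, was measured at 196, 156, 160.1 and 164 CPM in MIDY livers, against 136, 123, 87.6, 90.8 and 123 CPM in WT livers. It averaged 169 ± 18.3 CPM in MIDY livers and 112 ± 21.5 CPM in WT livers (SD, n = 4 and 5), without overlap, and had a log2 fold change of 0.60 ± 0.14 (SE; edgeR adjusted p = 0.0661).

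ACOX2, the oxidase for branched chains and for the side chain of bile acid precursors, stood at 315, 293, 292 and 271 CPM in MIDY livers, against 269, 198, 177, 170.4 and 203 CPM in WT livers. The groups did not overlap, but WT liver 1 came within 2 CPM of MIDY liver 4. ACAA1, the peroxisomal thiolase, was measured at 414, 349, 297 and 269.5 CPM in MIDY livers, against 271, 214, 201, 236 and 204 CPM in WT livers. Here the same pair of livers crossed, and the other 3 MIDY livers lay above all WT livers. Log2 fold changes were 0.53 ± 0.13 for ACOX2 and 0.56 ± 0.14 for ACAA1 (SE; edgeR adjusted p = 0.0798 and 0.0776). Without WT liver 1 they were 0.64 and 0.63, and ACOX2, ACAA1 and CROT were then called (adjusted p by edgeR = 0.0238, 0.0472 and 0.0426, beside 1.09% of genes called higher in that fit). ACAA1 was also called without MIDY liver 4 (edgeR adjusted p = 0.0455, beside 0.995% of genes called higher in that fit).

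ABCD3, which imports branched-chain and other fatty acyl-CoA, was at 286, 134, 142 and 108 CPM in MIDY livers, against 95.4, 94.7, 76.7, 125 and 92.4 CPM in WT livers. MIDY liver 1 stood far above the other MIDY livers, and MIDY liver 4 lay below WT liver 4. The log2 fold change was 0.79 ± 0.26 (SE; edgeR adjusted p = 0.178), and 0.40 without MIDY liver 1. PEX11A, a membrane protein of peroxisome division, had low counts, 130, 145, 129 and 95 in MIDY livers, against 84, 96, 67, 72 and 64 in WT livers. On the CPM scale 3 MIDY livers were above all WT livers, and the log2 fold change was 0.67 ± 0.21 (SE; edgeR adjusted p = 0.142).

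The bifunctional enzymes of peroxisomal oxidation lay nearer to 0. EHHADH, of the L pathway, had 823, 762, 788 and 627 CPM in MIDY livers, against 663, 637, 643, 613 and 629.9 CPM in WT livers, with WT livers within a coefficient of variation of 2.89% and 3 MIDY livers above them. HSD17B4, of the D pathway, averaged 722 ± 55.7 CPM in MIDY livers and 650.5 ± 61.4 CPM in WT livers (SD, n = 4 and 5). Log2 fold changes were 0.23 ± 0.11 and 0.15 ± 0.11 (SE; edgeR adjusted p = 0.301 and 0.540). PHYH, which starts the alpha-oxidation of phytanic acid, had a log2 fold change of 0.24 ± 0.16, and ACOX3, another branched-chain oxidase, one of 0.031 ± 0.23 (SE; edgeR adjusted p = 0.486 and 0.969).

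**Figure D4:**
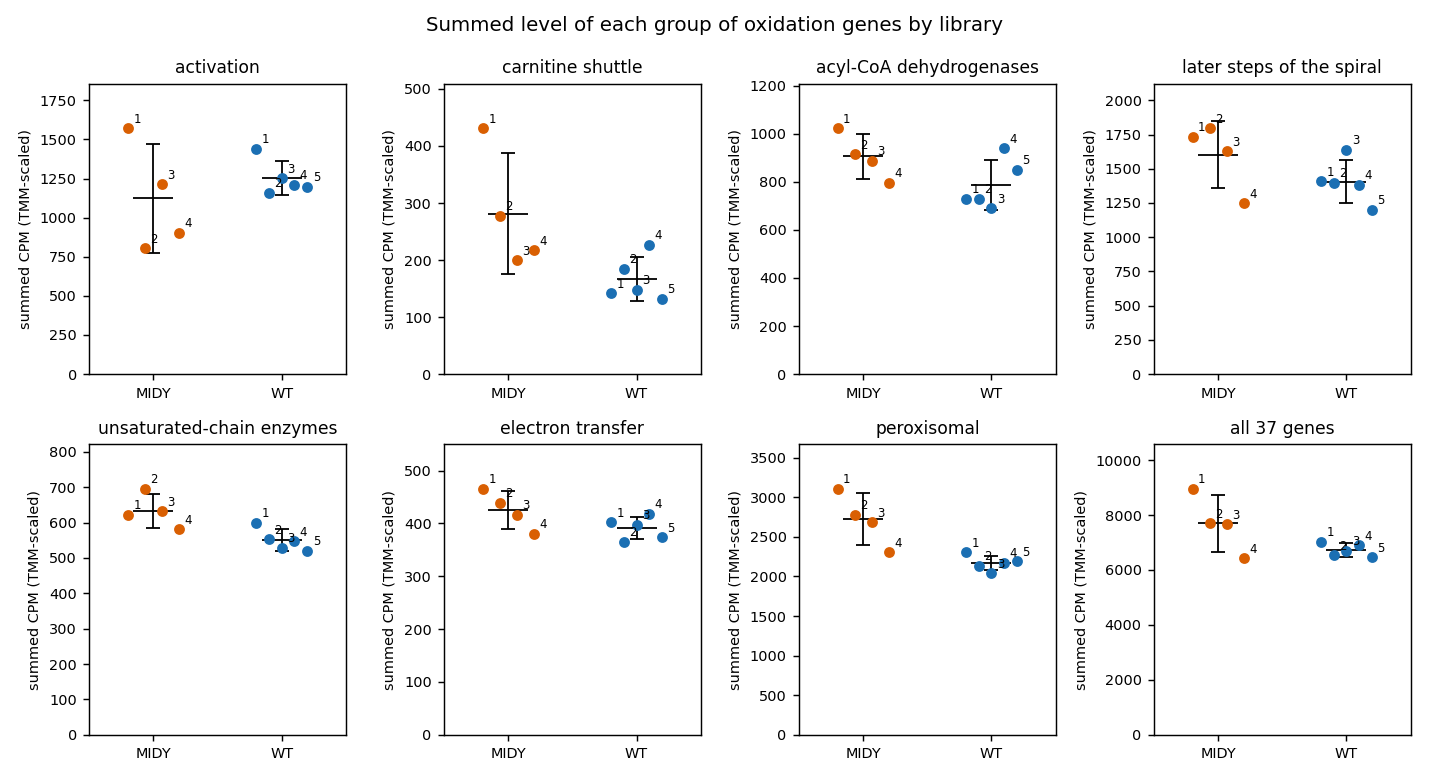
Summed TMM-scaled CPM of each role group and of all 37 genes in each liver, MIDY left of WT; numbers are replicates, and black marks are the mean ± SD (n = 4 MIDY and 5 WT). The peroxisomal sums do not overlap between the groups, and MIDY liver 1 is the highest liver in each panel except those of the later steps of the spiral and the unsaturated-chain enzymes, where MIDY liver 2 is.

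The MIDY livers differed from each other along the whole gene group. MIDY liver 1 was the highest of the 4 in 24 of the 36 genes, and MIDY liver 4 the lowest in 25. Over all genes tested these livers held those places in 28.8% and 27.0%. MIDY liver 1 was above every WT liver in 26 of the 36 genes, MIDY liver 2 in 22, MIDY liver 3 in 16 and MIDY liver 4 in 5. The corresponding shares of all genes tested were 21.4%, 21.2%, 20.7% and 20.1%. Scaling by total counts alone, which does not apply the TMM factor of 0.948 for MIDY liver 1 and 1.10 for MIDY liver 4, reduced the tallies to 17 for MIDY liver 1 as highest and 14 for MIDY liver 4 as lowest, where the shares of all genes were 17.9% and 12.7%.

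At least 3 of the 4 MIDY livers lay above all WT livers in 15 of the 36 genes under either scaling, beside 10.7% of all genes tested with TMM factors and 11.3% by total counts. The highest of the 9 livers was a MIDY liver for 29 genes, beside 45.9% of all genes tested, and the lowest a WT liver for 29, beside 53.9%. Without MIDY liver 1, 27 of 36 fitted values stayed above 0, with a median of 0.19, and the medians of the carnitine shuttle and peroxisomal genes were 0.33 and 0.40. Among WT livers, WT liver 1 was the highest for 11 genes and WT livers 3 and 4 for 10 each. Over all genes tested, WT livers 1, 3 and 4 held that place in 20.9%, 26% and 16.1%. The median coefficient of variation of the 36 genes was 18.1% in MIDY and 14.6% in WT livers.

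**Figure D5:**
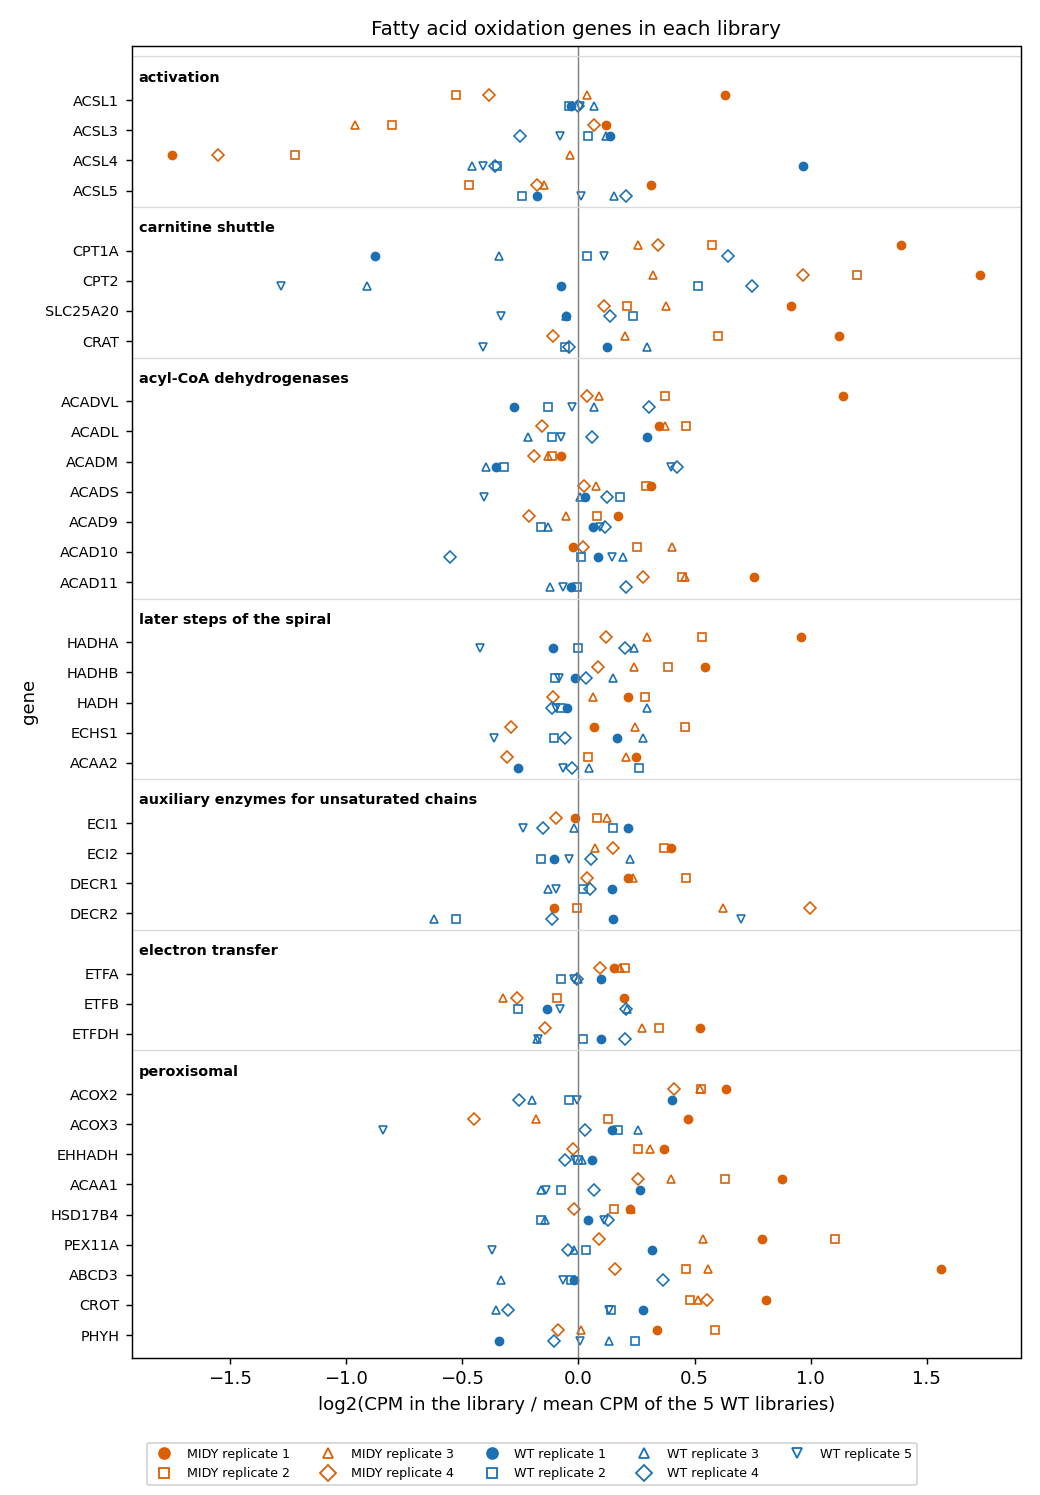
Level of each tested gene in each liver as log2 of its CPM over the mean CPM of the 5 WT livers, MIDY (orange) above WT (blue) in each row, genes grouped by role. Filled circles are replicate 1 of each group. MIDY liver 1 is the rightmost of the MIDY livers in 24 of 36 rows, and the acyl-CoA synthetases spread to both sides of 0.

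Other genes of the pathway were read from 6 lists, 85 of whose 91 genes were tested. Of these, 2 rose and 0 fell in MIDY livers (edgeR, adjusted over all genes tested), where 0.816% of all genes tested rose and 0.355% fell. Their median log2 fold change was 0.07, with 61.2% above 0, beside 49.3% of all genes tested. HACL1, the lyase that follows PHYH in peroxisomal alpha-oxidation, rose, averaging 57.5 ± 4.29 CPM in MIDY livers and 41.0 ± 4.34 CPM in WT livers (SD, n = 4 and 5), a log2 fold change of 0.49 ± 0.11 (SE; edgeR adjusted p = 0.0467). CREB3L3, a liver transcription factor that acts with PPARA in mice, rose, averaging 165 ± 37.5 CPM in MIDY livers and 100.1 ± 11.8 CPM in WT livers (SD, n = 4 and 5), a log2 fold change of 0.72 ± 0.15 (SE; edgeR adjusted p = 0.0394). With 1 library left out in turn, 9 fits in all, HACL1 was called in 1 (without WT liver 1) and CREB3L3 in 2 (without WT liver 1 or MIDY liver 4), and the edgeR adjusted p reached 0.134 and 0.114.

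Among the regulators, 1 of 16 rose (CREB3L3) and 0 fell, with a median of 0.13; over all genes tested, 0.816% rose and 0.355% fell. PPARA itself averaged 49.9 ± 8.41 CPM in MIDY livers and 29.9 ± 7.57 CPM in WT livers (SD, n = 4 and 5), with no overlap between the groups and a log2 fold change of 0.74 ± 0.18 (SE; edgeR adjusted p = 0.0756). The deacetylase SIRT1 and the AMPK subunit PRKAA2 had log2 fold changes of 0.36 and 0.24 (adjusted p by edgeR = 0.194 and 0.242). Among other peroxisomal enzymes and transporters, 1 of 20 rose (HACL1) and 0 fell, against the same shares of all genes, with a median of 0.05. SCP2, a sterol carrier and thiolase, had a log2 fold change of 0.31, AMACR, the racemase of branched chains, one of -0.52, and the processing protease TYSND1 one of -0.56 (adjusted p by edgeR = 0.204, 0.223 and 0.253). Of 15 peroxisome assembly genes 0 were called, and their median log2 fold change was 0.06. PEX26, PEX13 and PEX6, among those with the smallest p-values, had log2 fold changes of 0.26, 0.17 and 0.16 (adjusted p by edgeR = 0.342, 0.445 and 0.729).

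Of 7 flavin and electron transfer supply genes 0 were called, with a median of 0.20. ETFRF1, a regulator of the ETF proteins, came closest, at 63.6 ± 4.87 CPM in MIDY livers and 40.7 ± 8.41 CPM in WT livers (SD, n = 4 and 5) and a log2 fold change of 0.64 ± 0.14 (SE; edgeR adjusted p = 0.0528). FLAD1, which makes FAD, the riboflavin transporter SLC52A3 and the ETFB methyltransferase ETFBKMT had log2 fold changes of 0.55, -0.55 and 0.20 (adjusted p by edgeR = 0.130, 0.304 and 0.602). Of 13 other mitochondrial, carnitine and thioesterase genes 0 were called, with a median of 0.12. MLYCD, which removes malonyl-CoA, had a log2 fold change of 0.63, PCCA, a propionyl-CoA carboxylase subunit, one of 0.29, and the thioesterase ACOT9 one of -0.45 (adjusted p by edgeR = 0.204, 0.231 and 0.381). CPT1C, the brain form of CPT1, was low, at 0.702 ± 0.469 CPM in MIDY livers and 1.39 ± 0.273 CPM in WT livers (SD, n = 4 and 5), a log2 fold change of -0.98 (adjusted p by edgeR = 0.256). Of 14 genes of fatty acid uptake, binding and other activation 0 were called, with a median of 0.02. The transporter SLC27A1 had a log2 fold change of 0.57 and ACSS1 one of -0.61, each without overlap of the groups (adjusted p by edgeR = 0.0661 and 0.231). For ACSS1 the groups nearly met, with MIDY liver 4 at 1.888 CPM and WT liver 4 at 1.891 CPM. ACSS3 had a log2 fold change of 0.34 and the binding protein FABP1 one of -0.34 (adjusted p by edgeR = 0.203 and 0.324).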

How the data were processed

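The tools named in the submitters' processing notes are STAR (aligner), HTSeq (counter) and DESeq2, with the build Sscrofa11.1. The sources used here do not give versions, annotation release or strand setting. Without a known strand setting, the counts of the 11 genes that other gene models overlap (ACSL5, ACADVL, ACAD9, ACAD10, ACAD11, HADHB, ECI1, ECI2, ETFDH, ACAA1 and PEX11A) are uncertain. Trizol was used for RNA isolation and a Nugen Encore kit for the libraries, per the labels' protocols. Raw counts per symbol were deposited by the authors in 1 table, 1 column per library, with 0 columns unused here and 0 rows naming no gene. No 2 libraries held identical counts.

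All 14100 genes kept by filterByExpr (99.9% of counts) were fitted in edgeR 4.0.16 (R 4.3.3) with TMM factors and the robust quasi-likelihood model, with two-sided p-values and Benjamini-Hochberg adjustment across the full set. The script was tested on simulated data. The SE is the log2 fold change over the square root of F, and the common biological coefficient of variation was 21.5%. Each library is labelled with its own number and taken as a separate animal. Alternatives were RLE or total-count scaling, no low-count filter or one asking for 1 CPM in 4 or more libraries, DESeq2 1.42.0 (278 adjusted p-values missing), limma voom 3.58.1, sva 3.50.0, removal of the 10 most abundant genes, and libraries left out. The genes, lists and marker lists were chosen with earlier results of these data known. Every oxidation gene is named; of each further list, called genes and up to 4 with the smallest p, apart from items not reported here. Positions come from the RefSeq gene table, which held all 37 symbols; no sequence was used. The share of mitochondrially encoded transcripts was not analysed here.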

Additional observations from a re-analysis of the deposited data

Results flagged for a closer look

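Levels of the 36 tested genes were checked in each group for a single library far from the rest, 72 combinations in all, of which chance alone would single out about 1 in 20. The check singled out 3 libraries, all WT. ACSL4 was measured at 441 CPM in WT liver 1, against 164 to 177 CPM in the other 4 WT livers. HADH was measured at 316 CPM in WT liver 3, against 238 to 249 CPM in the other 4. ACOX3 was measured at 8.08 CPM in WT liver 5, against 14.8 to 17.3 CPM in the other 4.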

How the results depend on the processing

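Oxidation genes called higher numbered 0 by edgeR with all libraries, where 0.816% of all genes tested were called higher. They numbered 2 with no low-count filter (0.635% of all genes), 5 by DESeq2 (2.52%) and 3 with 1 surrogate variable (1.04%). With WT livers 1 and 2 both left out the number was 1 (0.296%), and leaving out 1 library gave 0 to 3 (0.237% to 1.09%). Genes called higher over the whole table numbered 115, against 355 by DESeq2, 42 without WT livers 1 and 2, and 34 to 152 with 1 library left out. Genes called lower numbered 50, against 284 by DESeq2, 81 by voom, 79 with the surrogate variable, 24 without WT livers 1 and 2, and 4 to 107 with 1 library left out. Other pathway genes called higher numbered 2, against 1 by total counts alone, 5 by DESeq2, 0 without WT livers 1 and 2, and 0 to 2 with 1 library left out. Oxidation genes without overlap between the groups numbered 3 higher and 0 lower (3.72% and 2.63% of all genes), against 8 higher by total counts alone (3.95%), 6 higher without WT livers 1 and 2 (7.39%), and 3 to 14 higher and 0 to 1 lower with 1 library left out (4.55% to 6.01% and 3.39% to 5.85% of all genes). Calls that were higher made up 69.7% of all calls, 55.6% by DESeq2 and 77.0% by total counts alone. Small fold changes turned sign: ACSL1 was -0.097 by voom and -0.021 without WT livers 1 and 2, and ACAD9 was -0.0038 without the 10 most abundant genes, -0.00058 by DESeq2, -0.044 by voom and -0.034 without WT livers 1 and 2. With 1 library left out, log2 fold changes ran from -0.27 to 0.16 for ACSL1, -0.26 to 0.013 for ACSL5, -0.058 to 0.061 for ACAD9, -0.0055 to 0.16 for ACAA2, -0.028 to 0.078 for ECI1 and -0.15 to 0.16 for ACOX3. The other tested oxidation genes kept their sign in every setting. The cause was not tested. The tallies of MIDY livers 1 and 4 under other scalings were added after seeing the data; RLE scaling gave 24 and 25 again. Scaling moved the median of all genes by at most 0.023 on the log2 scale. No paired analysis was possible because the labels give no replicate numbers shared between the groups.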
